A study of Mus musculus with 12 samples.

Results

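The genes described are 10 mouse genes whose protein products build the alpha and dense granules of platelets and their precursors, the megakaryocytes. They were taken by gene symbol from the count table as Nbeal2, Vps33b, Vipas39, Lyst, Hps1, Hps5, Ap3b1, Rab27b, Slc35d3 and Slc17a9. Each symbol matched 1 row of the 49671 genes in the table, and all 10 passed the filter on low counts. RNA sequencing had been done on 12 libraries from Mus musculus, each labelled as a pool of e9.5 embryos, that is, of embryonic day 9.5. There were 4 groups with 3 libraries each, LYL1 SCL double knockout (KO), the LYL1 KO, the SCL KO and the wild type. The labels name no treatment for any group and no alleles, and each library mixes embryos. The replicates are numbered as biological ones, but no label ties them to separate litters, and the p-values below therefore speak only of the spread between these pools. Scl is the older name of Tal1, and Lyl1 is its paralog. Both are helix-loop-helix transcription factors of the blood lineages. The series title places the work in the study of primitive red cell formation.

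Alpha granules store adhesive proteins, clotting factors and growth factors, and dense granules store serotonin, nucleotides and calcium. Both mature from endosomal compartments, and dense granules belong to the lysosome-related organelles, a family that includes the melanosomes of pigment cells. Inherited loss of the sorting proteins that build them causes bleeding disorders such as gray platelet syndrome, Hermansky-Pudlak syndrome and Chediak-Higashi syndrome.

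Total counts lay between 24324685 and 29212443 per library, and a gene with 0 counts could still have had up to 3, which is 0.0936 to 0.131 CPM (counts scaled to a common total). Tal1 RNA was at 16.2% of the wild-type mean in the double KO and at 19.2% in Scl KO. Lyl1 RNA was at 46.5% of the wild-type mean in the double KO and at 48.5% in Lyl1 KO. The tissue is labelled as embryo, yet 8 markers of heart and neural tube summed to at most 1.13 CPM in every library. The 10 megakaryocyte markers, among them Itga2b and Gp1ba, all had counts in every library and summed to 9974 to 18896 CPM in the double KO, 32099 to 37726 CPM in Lyl1 KO, 21849 to 29627 CPM in Scl KO and 29494 to 33901 CPM in wild type. Replicate 3 of the double KO, Scl KO and wild type lay apart from replicates 1 and 2 of its own group on the second principal component, which held 13.2% of the variance. These replicate 3 libraries were at -26.6, -17.9 and -26.1. All 3 Lyl1 KO libraries lay on the same side, at -35.1, -24.4 and -29.6. What splits replicate 3 off can therefore not be fully told apart from the Lyl1 KO group on this component. Values below are CPM after TMM scaling, differences between groups are on the log2 scale with their standard error after ±, and a gene is called, and said to rise or fall, at an adjusted p under 0.05 in edgeR's quasi-likelihood test over 15399 genes.

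Scl and Lyl1 bind DNA at the E-box, spelled CANNTG, often beside GATA factors, whose core site is spelled here as GATAA. The 250 bases before the annotated start were available in the RefSeq table (GRCm38.p6) for 7 of the 10 genes. Rab27b, Vps33b and Slc17a9 had no entry. The 3 genes with an entry that were called in at least 1 comparison are given here, 5′ to 3′ on the gene's strand, with matches to both motifs on either strand in capitals. The Lyst window is chr13:13590159-13590408 on the plus strand, that of Nbeal2 is chr9:110654162-110654411 on the minus strand, and that of Slc35d3 is chr10:19851460-19851709 on the minus strand.
Lyst: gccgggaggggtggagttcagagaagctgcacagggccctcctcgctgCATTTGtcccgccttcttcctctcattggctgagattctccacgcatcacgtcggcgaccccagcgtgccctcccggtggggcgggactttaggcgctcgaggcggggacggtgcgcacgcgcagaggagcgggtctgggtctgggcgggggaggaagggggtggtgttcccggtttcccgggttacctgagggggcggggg
Nbeal2: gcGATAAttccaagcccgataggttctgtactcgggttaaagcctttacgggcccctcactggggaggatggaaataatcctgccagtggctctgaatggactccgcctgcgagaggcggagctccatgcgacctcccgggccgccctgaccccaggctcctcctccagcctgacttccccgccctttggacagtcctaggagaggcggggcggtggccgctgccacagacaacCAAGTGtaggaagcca
Slc35d3: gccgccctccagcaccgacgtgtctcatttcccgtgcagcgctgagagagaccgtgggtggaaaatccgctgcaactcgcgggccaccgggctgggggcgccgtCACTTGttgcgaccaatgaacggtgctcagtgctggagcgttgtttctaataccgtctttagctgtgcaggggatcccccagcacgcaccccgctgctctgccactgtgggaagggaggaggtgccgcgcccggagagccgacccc
Lyst held 1 CANNTG match, with its first base at -202 from the start site, and no GATAA. Nbeal2 held 1 GATAA at -248 and 1 CANNTG at -16, and Slc35d3 held 1 CANNTG at -146 and no GATAA. Over all entries, 6 of the 7 genes had a CANNTG match, and 2, Nbeal2 and Vipas39, had a GATAA match. Of all 32851 windows of this length in the table, 66.2% held CANNTG and 22.6% held GATAA. These shares are per window and the counts above are per gene. Vipas39 and Hps1 had 2 windows each, and Vipas39 held CANNTG only in its second. Both second windows lie inside the gene spans given below, and the Hps5 window reaches into that of Hps5. No 2 matches overlapped in the windows of the 7 genes.

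Per kilobase of exon, Rab27b, a small GTPase that sets the number and release of dense granules in mouse platelets, had the highest level of the 10 in all 4 groups. It stood at 94.7 ± 16 CPM per kb in the double KO, 211 ± 19 in Lyl1 KO, 136 ± 5.26 in Scl KO and 233 ± 37.9 in wild type (mean ± SD, n = 3). In wild type the order below it was Nbeal2 at 59.2 ± 6.48, Slc35d3 at 50.4 ± 10.9, Ap3b1 at 38.9 ± 3.08 and Lyst at 27.7 ± 5.45 CPM per kb. Vps33b followed at 16.2 ± 3.05, Vipas39 at 14.6 ± 2.21, Hps1 at 7.28 ± 0.758, Hps5 at 4.95 ± 0.629 and Slc17a9 at 0.732 ± 0.202 CPM per kb. Among these neighbours, Nbeal2 and Slc35d3, Slc35d3 and Ap3b1, and Vps33b and Vipas39 did not differ beyond their spread. In the double KO the spreads of Rab27b at 94.7 ± 16 and Nbeal2 at 80.4 ± 12.8 CPM per kb overlapped, and Lyst at 14.6 ± 2.61 lay beside Vipas39 at 15.5 ± 0.534.

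**Figure D1:**
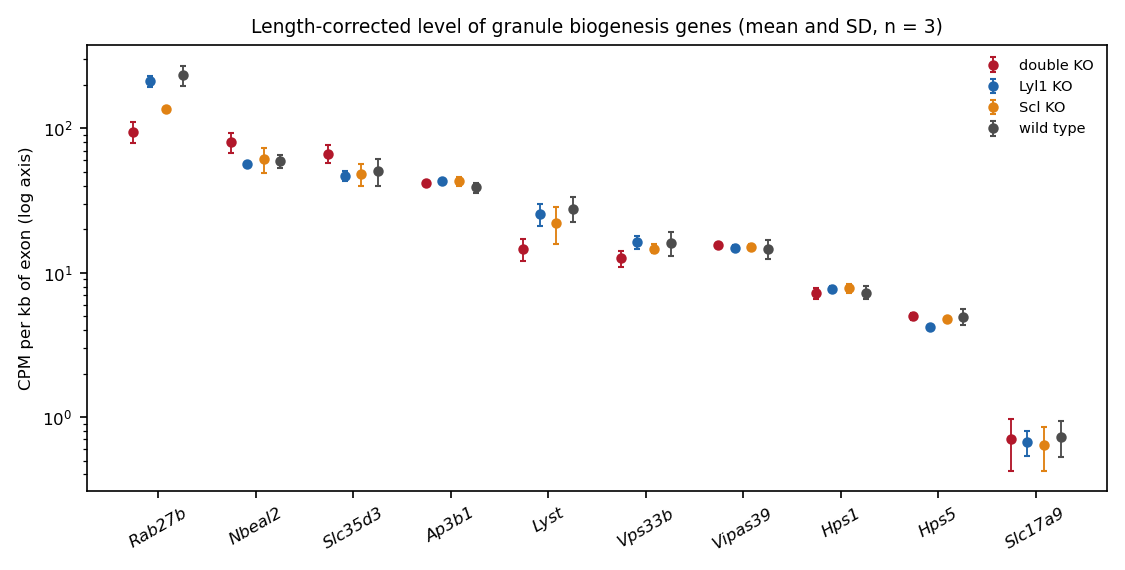
Length-corrected level of the 10 genes in the double KO, Lyl1 KO, Scl KO and wild type, from left to right at each gene, in CPM per kilobase of exon on a log axis. Points are means and bars are SD over 3 libraries. Rab27b lies highest in each group and Slc17a9 lowest, at 0.699 CPM per kb in the double KO and 0.732 in wild type.

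In the double KO against wild type Rab27b and Lyst fell. Rab27b was at 40.6% and Lyst at 52.7% of the wild-type mean, and the other 8 genes were not called. The 2 of 10 genes called compare with 34.5% of all genes tested. In 3 of the 10, Nbeal2, Rab27b and Lyst, the groups did not overlap, against 42.5% of all genes. The median log2 change of the 10 was -0.0015, beside 0.04 over all genes tested.

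Rab27b (ENSMUSG00000024511, chromosome 18, 69979131 to 70141605, minus strand, GRCm38) had 1186, 1002 and 845 CPM in the 3 double KO libraries and 2475, 2073 and 2228 CPM in Lyl1 KO. It had 1424, 1518 and 1417 CPM in Scl KO and 2204, 2953 and 2311 CPM in wild type. Each double KO library lay below every Scl KO library, and each Scl KO library lay below every Lyl1 KO and wild-type library, while Lyl1 KO and wild type overlapped. Its change in the double KO against wild type was -1.30 ± 0.16 (adjusted p = 7.89e-05), and against Lyl1 KO it was -1.16 ± 0.16 (adjusted p = 0.000158). Both calls were kept under every alternative, with a highest adjusted p of 0.00274 and 0.00198. The summed megakaryocyte markers were also lowest in the double KO, where 10 of the 10 were called lower against wild type, beside 18.1% of all genes that fell. In Scl KO against wild type 0 of the 10 were called. In Lyl1 KO against wild type Rab27b was not called, at -0.14 (adjusted p = 0.869). There 0 of the 10 markers were called, and the markers averaged 34014 CPM beside 31635 CPM in wild type. Their part in the fall of Rab27b was not tested, and in these bulk libraries fewer cells of a type and less RNA per cell cannot be told apart.

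**Figure D2:**
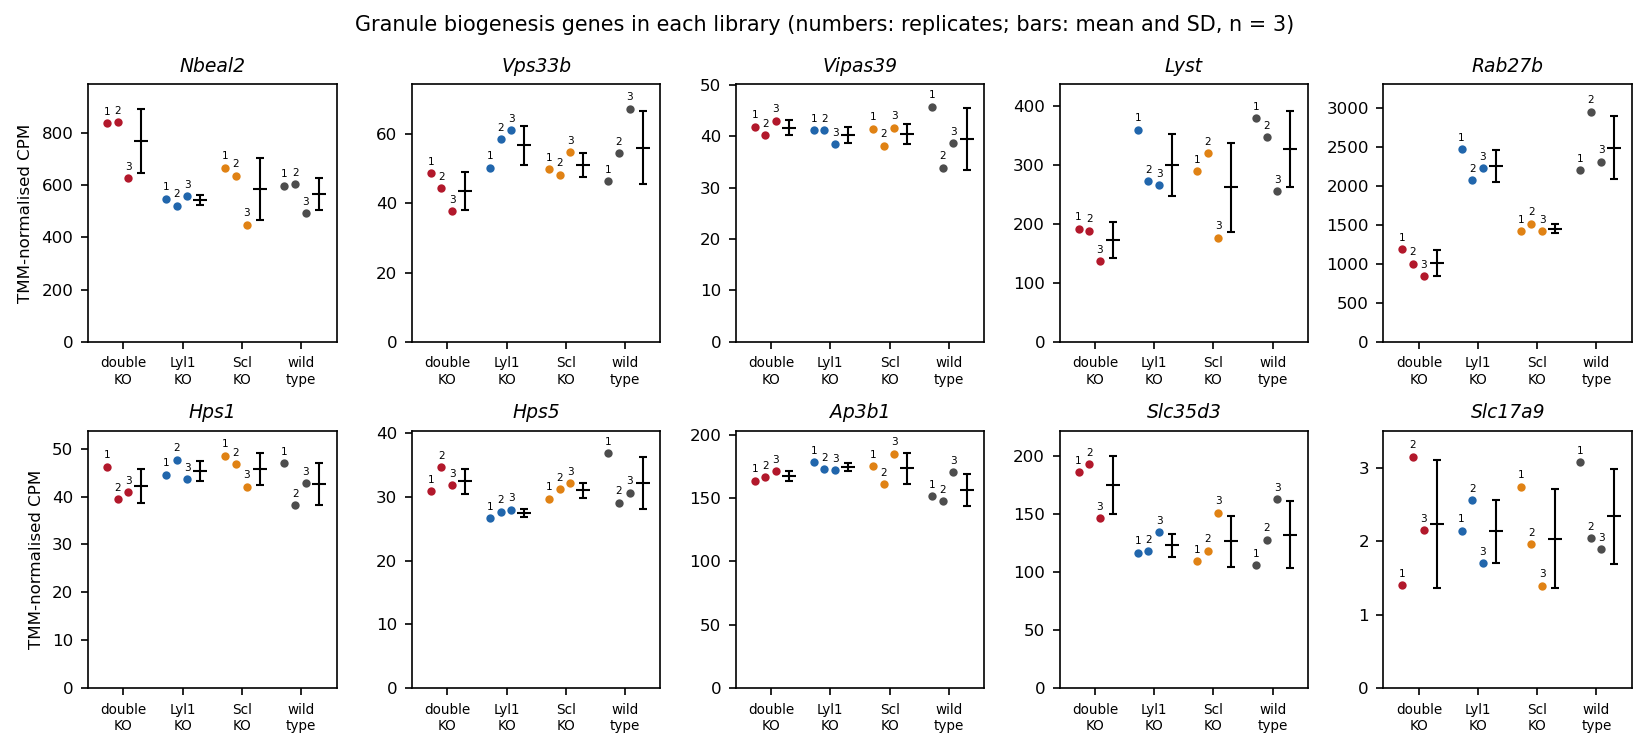
TMM-normalised CPM of the 10 genes in the 12 libraries, with 1 panel per gene and the double KO, Lyl1 KO, Scl KO and wild type from left to right. Points are libraries with their replicate number, and bars are mean and SD of 3. In Rab27b the double KO lies between 845 and 1186 CPM, below the Scl KO libraries at 1417 to 1518 CPM, and in Vipas39 the 4 groups overlap.

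Lyst (ENSMUSG00000019726, chromosome 13, 13590409 to 13777440, plus strand) encodes the large BEACH-domain protein whose loss causes Chediak-Higashi syndrome, with enlarged lysosomes and few dense granules. It had 192, 188 and 137 CPM in the double KO and 360.3, 272 and 266 CPM in Lyl1 KO. It had 289, 320.0 and 177 CPM in Scl KO and 379, 348 and 255 CPM in wild type. The double KO lay below all wild-type and Lyl1 KO libraries, and only the third Scl KO library reached into its range. Replicate 3 was the lowest library of every group. Lyst fell in the double KO, with a change of -0.93 ± 0.23 against wild type (adjusted p = 0.00894) and of -0.80 ± 0.23 against Lyl1 KO (adjusted p = 0.0182). The first call was kept under every alternative, up to an adjusted p of 0.0337, and the second was lost without double KO 3 (adjusted p = 0.0592) or Lyl1 KO 1 (adjusted p = 0.075). The summed markers of macrophages, which also carry many lysosomes, were 2937 to 3333 CPM in the double KO, 4457 to 6575 CPM in Lyl1 KO, 3306 to 4264 CPM in Scl KO and 3650 to 5774 CPM in wild type. Of the 10 markers 4 were called lower in the double KO against wild type, beside 18.1% of all genes that fell. Their part in the Lyst result was not tested.

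Of the alpha granule genes, none was called between the double KO and wild type, and Nbeal2 rose against Lyl1 KO. Nbeal2 (ENSMUSG00000056724, chromosome 9, 110624789 to 110654161, minus strand), also a BEACH-domain protein and the gene of gray platelet syndrome, had 836, 841 and 627 CPM in the double KO. It had 548, 521 and 558 CPM in Lyl1 KO, 667, 636 and 448 CPM in Scl KO and 598, 604 and 494 CPM in wild type. All double KO libraries lay above those of Lyl1 KO and wild type, but double KO 3 lay within the Scl KO range. The change against Lyl1 KO was 0.50 ± 0.17 (adjusted p = 0.0341) and against wild type 0.44 ± 0.17 (adjusted p = 0.0576). The call against Lyl1 KO was lost without double KO 1 (adjusted p = 0.0786), double KO 2 (0.0987), Lyl1 KO 1 (0.0775), Lyl1 KO 2 (0.098) or Lyl1 KO 3 (0.062). Against wild type Nbeal2 was called without double KO 3 (adjusted p = 0.02) or Scl KO 3 (adjusted p = 0.024), and in the 8 libraries of replicates 1 and 2, at 0.47 (adjusted p = 0.0113). The DESeq2 Wald test (adjusted p = 0.0383) and a block of replicate 3 against the others, in 2 levels (0.0121), called it too.

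Vps33b (ENSMUSG00000030534, chromosome 7, 80269649 to 80291754, plus strand) and Vipas39 (ENSMUSG00000021038, chromosome 12, 87238875 to 87266286, minus strand) encode partners in a tethering complex that alpha granules need. Vps33b had 48.7, 44.4 and 37.8 CPM in the double KO, 50.3, 58.6 and 61.3 CPM in Lyl1 KO, 49.8, 48.3 and 54.9 CPM in Scl KO and 46.4, 54.4 and 67.4 CPM in wild type. Its double KO libraries lay below all of Lyl1 KO but overlapped the other groups. The change was -0.36 ± 0.14 against wild type (adjusted p = 0.0671) and -0.38 ± 0.14 against Lyl1 KO (adjusted p = 0.0563). Without double KO 1 or wild type 1 it was called against wild type (adjusted p = 0.0486 and 0.0214) and against Lyl1 KO (adjusted p = 0.0411 and 0.032). Against Lyl1 KO it was also called without wild type 3 (adjusted p = 0.0264), with DESeq2 size factors (0.0401), with the DESeq2 Wald test (0.0284), with a minimum mean of 1 CPM (0.0495), in the 6 libraries compared (0.0384) and with the replicates as a block in 2 levels (0.0419). Against wild type the DESeq2 Wald test called it as well (adjusted p = 0.0396). Vipas39 averaged 41.7 ± 1.44 CPM in the double KO, 40.3 ± 1.61 in Lyl1 KO, 40.5 ± 1.97 in Scl KO and 39.5 ± 5.98 in wild type (SD, n = 3). Its change in the double KO against wild type was 0.08, with a 95% interval of -0.15 to 0.31. Whether the changes of these partners differ from each other was not tested.

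Slc35d3 and Slc17a9 encode transporters of dense granules. Slc35d3 (ENSMUSG00000050473, chromosome 10, 19847916 to 19851459, minus strand), a member of the nucleotide sugar transporter family that mouse platelets need for dense granules, had 186, 193 and 147 CPM in the double KO. It had 117, 119 and 134.5 CPM in Lyl1 KO, 109.8, 119 and 151 CPM in Scl KO and 106, 128 and 163 CPM in wild type. The double KO lay above all of Lyl1 KO, whereas the third libraries of Scl KO and wild type, the highest of their groups, lay above double KO 3. Slc35d3 rose against Lyl1 KO by 0.51 ± 0.17 (adjusted p = 0.0354), and its change against wild type was 0.40 ± 0.17 (adjusted p = 0.0844). The call against Lyl1 KO was lost without double KO 1 (adjusted p = 0.0854), double KO 2 (0.113), Lyl1 KO 1 (0.124), Lyl1 KO 2 (0.108), Lyl1 KO 3 (0.0528) or wild type 2 (0.056). Against wild type it was called without double KO 3 (adjusted p = 0.0474) or wild type 3 (adjusted p = 0.0214), and in replicates 1 and 2 alone, at 0.68 (adjusted p = 0.00109), and with the replicates as a block in 2 levels (adjusted p = 0.0427). Slc17a9 (ENSMUSG00000023393, chromosome 2, 180725263 to 180742280, plus strand), the vesicular nucleotide transporter, was near 2 CPM in every group, at 2.24 ± 0.877 in the double KO, 2.14 ± 0.43 in Lyl1 KO, 2.04 ± 0.676 in Scl KO and 2.34 ± 0.645 in wild type. Its 40 to 95 counts per library limit the precision, and the interval of its change in the double KO against wild type ran from -0.84 to 0.71.

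Hps1, Hps5 and Ap3b1 encode sorting subunits whose loss causes forms of Hermansky-Pudlak syndrome. None was called in any comparison. Hps1 (ENSMUSG00000025188, chromosome 19, 42755105 to 42779978, minus strand), a subunit of BLOC-3, averaged 42.2 ± 3.59 CPM in the double KO, 45.3 ± 2.1 in Lyl1 KO, 45.8 ± 3.35 in Scl KO and 42.6 ± 4.44 in wild type. Hps5 (ENSMUSG00000014418, chromosome 7, 46760466 to 46796064, minus strand), a subunit of BLOC-2, averaged 32.4 ± 1.95 CPM in the double KO, 27.4 ± 0.671 in Lyl1 KO, 31 ± 1.2 in Scl KO and 32.2 ± 4.09 in wild type. Ap3b1 (ENSMUSG00000021686, chromosome 13, 94358960 to 94566316, plus strand), the beta subunit of the adaptor AP-3, averaged 167 ± 3.89 CPM in the double KO, 174 ± 3.43 in Lyl1 KO, 173.5 ± 12.2 in Scl KO and 156 ± 12.4 in wild type. In the double KO against wild type their 95% intervals were -0.24 to 0.21 for Hps1, -0.21 to 0.24 for Hps5 and -0.10 to 0.29 for Ap3b1 on the log2 scale.

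**Figure D3:**
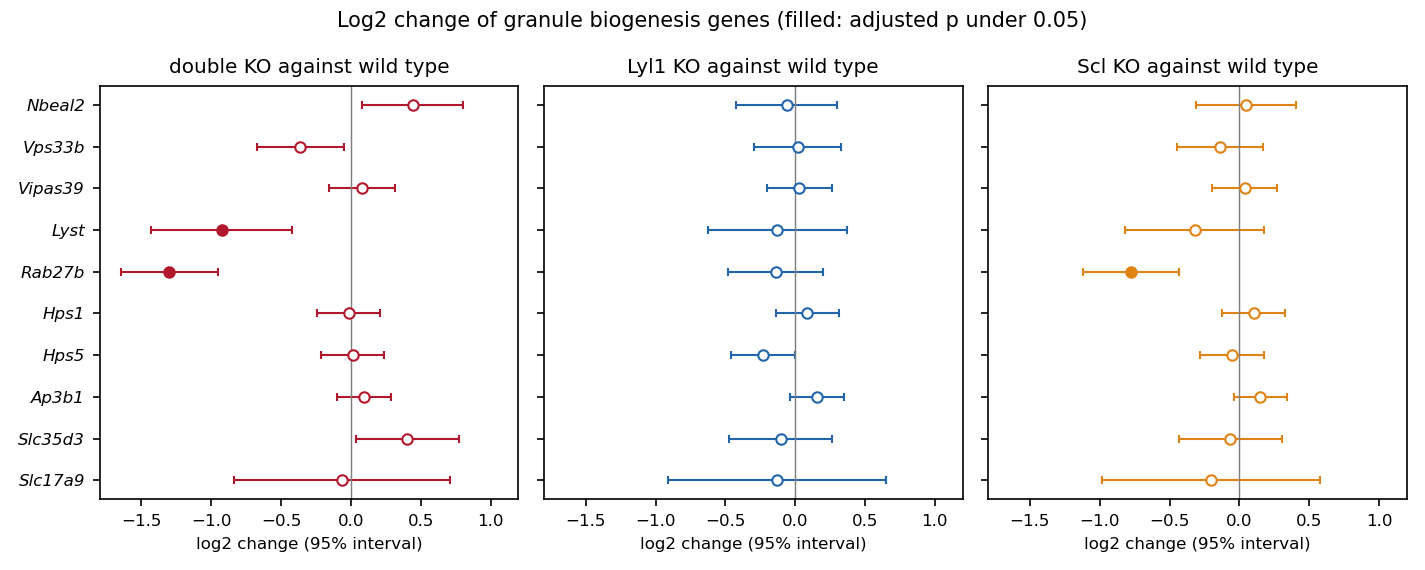
Log2 change of the 10 genes in the double KO, Lyl1 KO and Scl KO, each against wild type, with 95% intervals, from the fit of all 12 libraries. Filled points have an adjusted p under 0.05. Rab27b is filled in the double KO at -1.30 and in Scl KO at -0.78, and Lyst in the double KO at -0.93, and no point is filled in Lyl1 KO. The 3 comparisons share the wild-type libraries.

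In Scl KO against wild type Rab27b was the only one of the 10 genes called. It fell to 58.4% of the wild-type mean, a change of -0.78 ± 0.16 (adjusted p = 0.0144). The 1 of 10 called compares with 5.03% of all genes tested, and the 1 of 10 whose groups did not overlap with 22.4%. The call was lost without Scl KO 1 (adjusted p = 0.0602), Scl KO 2 (0.0519) or wild type 2 (0.0673). For Lyst, the change was -0.32 with a 95% interval of -0.82 to 0.18. The summed megakaryocyte markers were 29627, 28773 and 21849 CPM in Scl KO and 29494 to 33901 CPM in wild type, so only Scl KO 1 reached the wild-type range. The markers had a median log2 change of -0.27, beside 0.004 over all genes tested, and 0 of the 10 were called. Their part in the fall of Rab27b here was not tested.

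In Lyl1 KO against wild type 0 of the 10 genes were called by edgeR, beside 0.0714% of all genes. At an unadjusted p under 0.05 there was 1 of 10, beside 1230 of all 15399 genes. It was Hps5, at 26.7, 27.6 and 28 CPM in Lyl1 KO and 36.8, 29.1 and 30.7 CPM in wild type. The DESeq2 Wald test and limma-voom also called 0 of the 10. The groups did not overlap in 2 genes, Hps5, lower in Lyl1 KO, and Ap3b1, higher in Lyl1 KO, beside 15.9% of all genes. The change of Hps5 was -0.23 ± 0.10 (adjusted p = 0.619) and that of Ap3b1 0.16 ± 0.09 (adjusted p = 0.695). The interval for Rab27b ran from -0.48 to 0.20.

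The double KO was also set against each single KO, which asks what loss of the second factor adds, and both comparisons share the double KO libraries. Against Lyl1 KO, Rab27b and Lyst fell and Nbeal2 and Slc35d3 rose, which is 4 of 10 genes beside 35.2% of all genes, of which 17.9% fell and 17.4% rose. The groups did not overlap in 7 of the 10, beside 49.7% of all genes. Against Scl KO, Rab27b fell to 69.6% of the Scl KO mean, a change of -0.52 ± 0.16 (adjusted p = 0.0367), and was the 1 of 10 called, beside 19.1% of all genes. It was also the 1 gene without overlap, beside 33.4% of all genes. The Rab27b call was lost without double KO 2 (adjusted p = 0.098), double KO 3 (0.0942), Lyl1 KO 1 (0.0551), Lyl1 KO 3 (0.0662), Scl KO 1 (0.0856), Scl KO 2 (0.12) or Scl KO 3 (0.0526), and in a fit of only the 6 libraries compared (0.0924). Same-numbered libraries of these 2 groups deviated together, as did replicates 1 and 2 across numbers, and with the replicate number as a block 4 genes were called. These were Rab27b again, Lyst at -0.58 (adjusted p = 0.00753), Nbeal2 at 0.40 (adjusted p = 0.0385) and Slc35d3 at 0.49 (adjusted p = 0.0429). Without the block, Lyst was at -0.60 (adjusted p = 0.0896), Nbeal2 at 0.39 (adjusted p = 0.122) and Slc35d3 at 0.47 (adjusted p = 0.0745). In replicates 1 and 2 alone, Lyst at -0.68 (adjusted p = 0.00828) and Slc35d3 at 0.73 (adjusted p = 0.00144) were called and Rab27b was not (adjusted p = 0.126).

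The interaction compares what Lyl1 loss did in the absence of Scl (double KO minus Scl KO) with what it did in its presence (Lyl1 KO minus wild type). It was called for 0 of the 10 genes by edgeR, beside 9.38% of all genes (5.86% of all genes with a negative value). DESeq2 and limma-voom called 0 as well. An unadjusted p under 0.05 was found for 1 of 10, Slc35d3 at 0.57 ± 0.24, beside 3740 of all 15399 genes. In replicates 1 and 2 alone Slc35d3 was called, at 0.73 (adjusted p = 0.0162). For Rab27b the interaction was -0.38 ± 0.22 (adjusted p = 0.321), and for Lyst -0.48 ± 0.32 (adjusted p = 0.408). A joint test over the 4 groups called Rab27b (adjusted p = 0.000214) and Lyst (adjusted p = 0.0354), beside 31.9% of all genes, and gave Slc35d3 an adjusted p of 0.088.

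Over the 12 libraries, the genes whose log2 CPM was most alike to Rab27b among 11157 genes were Celf2, Rabgef1 and Serinc5, with Pearson's r of 0.989, 0.987 and 0.986. For Lyst they were Pfkfb3, Gpr146 and Frs2, with r of 0.976, 0.976 and 0.975. For Slc35d3 they were Lias, Asf1a and Mipol1, with r of 0.908, 0.903 and 0.898. The libraries share group, replicate and depth, so these values describe likeness across these samples.

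Among the other genes of the pathway, the Rab27 and Rab32 group with its effectors moved in both directions in the double KO against wild type, where 4 of 13 genes tested rose and 2 fell, beside 16.4% of all genes that rose and 18.1% that fell. Rab27a, the close paralog of Rab27b that acts in melanosome transport and cytotoxic granule release, had 317, 282 and 209.7 CPM in the double KO and 143, 178 and 172 CPM in wild type. It rose by 0.71 ± 0.15 (adjusted p = 0.0033), with no overlap between the groups. Sytl4, or granuphilin, an effector that docks Rab27-bearing granules, had 236, 176 and 134 CPM in the double KO and 607, 722 and 538 CPM in wild type, and fell by 1.77 ± 0.21 (adjusted p = 7.24e-05). Rab38, a GTPase of lysosome-related organelles, had 97.6, 181 and 204 CPM in the double KO and 25.4, 35.3 and 52.1 CPM in wild type, and rose by 2.10 ± 0.33 (adjusted p = 0.000478). The effector Sytl2 rose by 3.45 ± 0.71 (adjusted p = 0.00274), with 7.2, 5.18 and 42 CPM in the double KO and 0.958, 1.79 and 2.19 CPM in wild type, with double KO 3 the highest. Without that library its change was 1.89 (adjusted p = 0.00181). In Scl KO against wild type 1 gene of the list was called, Sytl4 at -0.83 (adjusted p = 0.0429), a call lost without any 1 of double KO 2, Lyl1 KO 2, Lyl1 KO 3, the 3 Scl KO libraries, wild type 1 and wild type 2, with an adjusted p of up to 0.157. The DESeq2 Wald test, a minimum mean of 1 CPM, the 6 libraries compared and both replicate blocks called 2 genes of the list, 1 up and 1 down. Sytl2 had 7.62, 8.92 and 14.5 CPM in Scl KO, above every wild-type library. Double KO 1 and 2 lay below these 3 Scl KO values, so the higher level was not particular to the double KO.

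**Figure D4:**
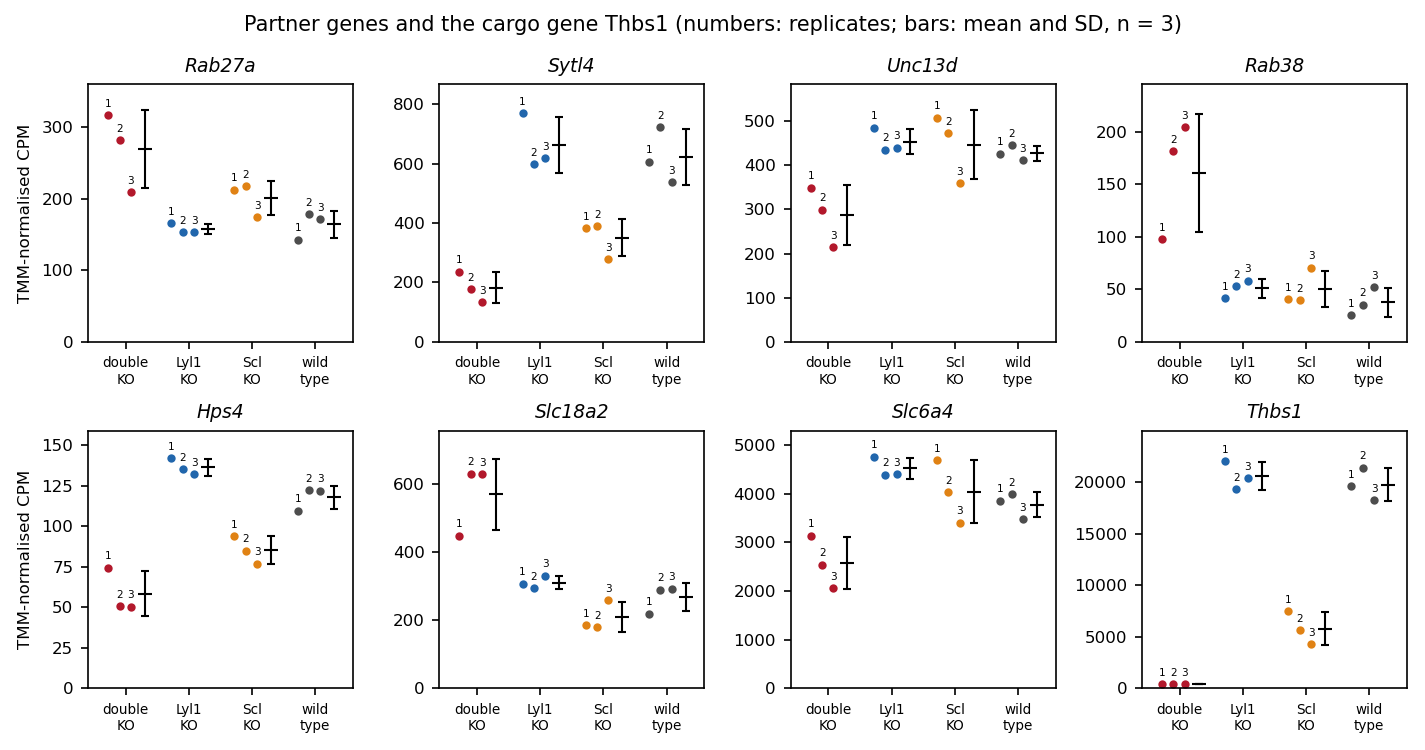
TMM-normalised CPM of partner genes and of the cargo gene Thbs1 in the 12 libraries, with the double KO, Lyl1 KO, Scl KO and wild type from left to right. Points are libraries with their replicate number, and bars are mean and SD of 3. The means of Sytl4, Hps4 and Thbs1 are lowest in the double KO and those of Rab27a, Rab38 and Slc18a2 are highest there, although Rab27a in double KO 3 lies below 2 Scl KO libraries, and Thbs1 is at 378 to 432 CPM in the double KO against 18232 to 21389 CPM in wild type.

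The other subunits of AP-3 and of the BLOC complexes gave 2 genes that rose and 2 that fell of 16 tested in the double KO against wild type, 4 of 16 called beside 34.5% of all genes. Hps4, which pairs with Hps1 in BLOC-3, the activator of Rab32 and Rab38, fell by 1.01 ± 0.14 (adjusted p = 0.000231), with 74.5, 50.7 and 50.3 CPM in the double KO and 109.6, 122 and 122 CPM in wild type. Its partner Hps1 was not called, at -0.02 ± 0.10 (adjusted p = 0.927). Of the AP-3 subunits that assemble with Ap3b1, Ap3s1 fell by 0.57 ± 0.09 (adjusted p = 0.000413), while Ap3s2 rose by 0.47 ± 0.11 (adjusted p = 0.00471) and Ap3m1 by 0.44 ± 0.13 (adjusted p = 0.0223). The Ap3m1 call was lost without any 1 of double KO 1, double KO 2, wild type 1 and wild type 2, with an adjusted p of up to 0.084. Ap3s1 and Ap3s2 encode alternative sigma subunits of the same complex, and no test set one against the other.

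Among other BEACH-domain genes, relatives of Nbeal2 and Lyst, 2 of 7 rose and 1 fell, beside 16.4% of all genes that rose and 18.1% that fell. Nsmaf, an adaptor of the tumour necrosis factor receptor, rose by 0.95 ± 0.18 (adjusted p = 0.00157), with 30.4, 26 and 26.6 CPM in the double KO and 15.8, 13.9 and 13.2 CPM in wild type. Wdfy4, which acts in antigen presentation by dendritic cells, rose by 0.56 ± 0.12 (adjusted p = 0.00415), and Wdfy3, which acts in selective autophagy, fell by 0.64 ± 0.12 (adjusted p = 0.00131). Among the HOPS and CORVET tethers, relatives of the Vps33b complex, 2 of 8 rose and 1 fell, beside the same shares. These were Tgfbrap1 at 0.30 (adjusted p = 0.0112), Vps16 at 0.25 (adjusted p = 0.0388) and Vps8 at -0.40 (adjusted p = 0.00458), and of the 3 only Vps8 was kept under every alternative, with Vps16 lost in 14 of 21 and Tgfbrap1 in 2.

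Transporters of the dense granule and their relatives gave 2 genes that rose and 2 that fell of 6, beside 16.4% and 18.1% of all genes. Slc18a2, the vesicular transporter that loads serotonin into dense granules, had 448, 629 and 628 CPM in the double KO and 219, 289 and 292 CPM in wild type. It rose by 1.09 ± 0.18 (adjusted p = 0.000619). Slc6a4, the plasma membrane serotonin transporter, had 3132, 2539 and 2053 CPM in the double KO and 3851, 3981 and 3478 CPM in wild type, and fell by 0.55 ± 0.17 (adjusted p = 0.0283). This call was lost without any 1 of double KO 2, double KO 3, wild type 1 and wild type 2, among 6 alternatives with an adjusted p of up to 0.0864. Slc35d1 and Slc35d2, paralogs of Slc35d3, changed in opposite directions, by 0.65 (adjusted p = 0.00568) and -0.55 (adjusted p = 0.00883), the second lost without wild type 2 (adjusted p = 0.0567) and in a fit of only the 6 libraries compared (0.0531). The vesicular serotonin transporter was higher, and the plasma membrane one lower, in each double KO library than in each wild-type library.

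In the double KO against Scl KO, calls were made for 2 of 16 AP-3 and BLOC genes, 1 of 8 tethers, 3 of 7 BEACH-domain genes, 5 of 13 genes of the Rab27 and Rab32 group, 3 of 6 transporters and 2 of 14 lysosomal genes, beside the 19.1% of all genes given above. Of the alpha granule cargo genes 10 of 14 fell there, beside 10.8% of all genes, with a median log2 change of -0.97 beside 0.03, and none rose. The megakaryocyte markers fell there as well, 10 of 10 with a median of -1.18, and their part in the cargo result was not tested. Over 21 alternatives the cargo count was 8 to 11, that of the Rab27 and Rab32 group 2 to 7, of AP-3 and BLOC genes 0 to 3, of BEACH-domain genes 1 to 3, of transporters 2 to 4 and of lysosomal genes 1 to 2. Sytl4, at 134 to 236 CPM in the double KO and 383, 390.0 and 278 CPM in Scl KO, fell by 0.94 ± 0.21 (adjusted p = 0.00848). Unc13d, or Munc13-4, the Rab27 effector that mouse platelets need for dense granule release, had 349.7, 299 and 214 CPM in the double KO and 508, 472 and 359 CPM in Scl KO. It fell by 0.63 ± 0.17 (adjusted p = 0.0237), a call lost without double KO 2, Scl KO 1 or Scl KO 2, with an adjusted p of up to 0.102. Slc18a2, at 448 to 629 CPM in the double KO and 185, 179.9 and 259 CPM in Scl KO, rose by 1.45 ± 0.18 (adjusted p = 0.000291).

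**Figure D5:**
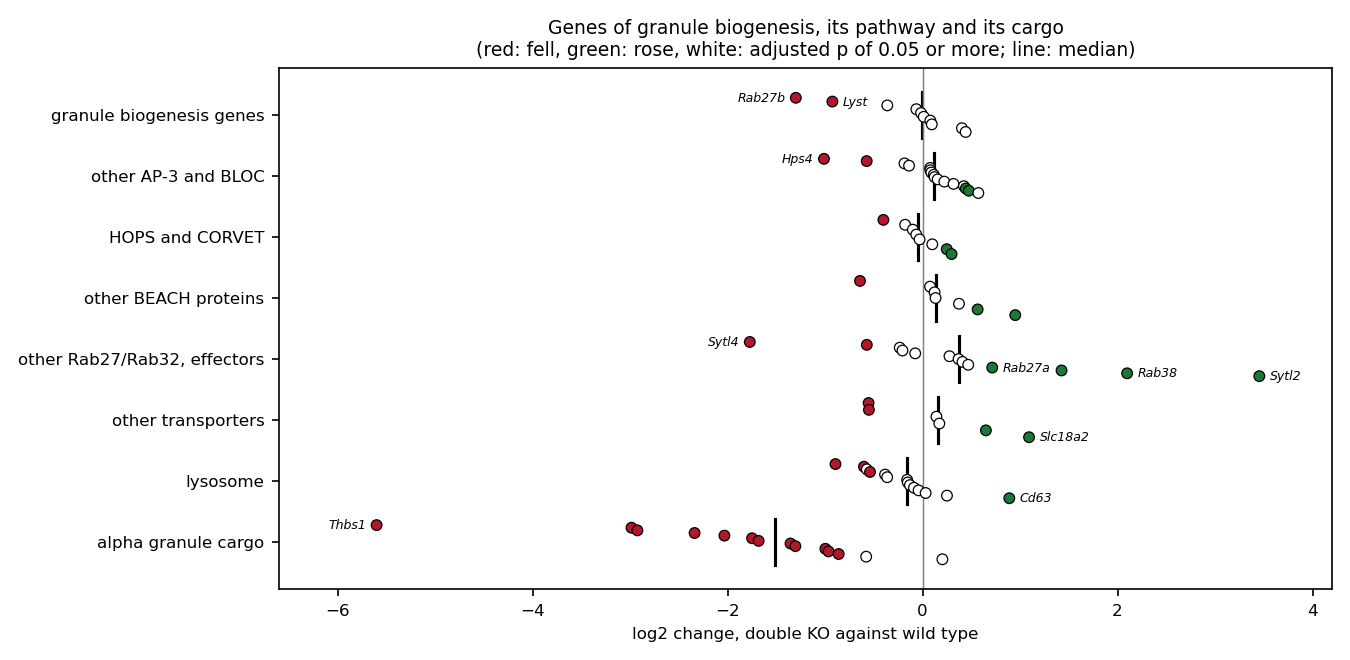
Log2 change in the double KO against wild type for the 10 genes and for 7 lists of related genes, with 1 point per gene tested and a vertical line at the median of each list. Red points fell, green points rose and white points had an adjusted p of 0.05 or more. The median of the 10 genes is -0.0015 and that of the alpha granule cargo -1.52, with Thbs1 at -5.60.

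Of 14 genes for proteins stored in alpha granules, 12 fell and none rose in the double KO against wild type, beside 18.1% of all genes that fell, with a median log2 change of -1.52 beside 0.04 for all genes. The difference from the 10 genes that build the granules, whose median was -0.0015, was not tested. The list's summed level was 10887 to 21233 CPM in the double KO and 58029 to 67379 CPM in wild type. Thbs1, the adhesive glycoprotein thrombospondin 1, had 412, 432 and 378 CPM in the double KO and 19623, 21389 and 18232 CPM in wild type, a change of -5.60 ± 0.24 (adjusted p = 6.55e-08). Pf4, the platelet chemokine, had 2542, 2047 and 2015 CPM in the double KO and 3727, 4230 and 4934 CPM in wild type. Selp at 0.20 (adjusted p = 0.204) and F13a1 at -0.58 (adjusted p = 0.0935) were the 2 cargo genes not called. In Scl KO against wild type 3 of the 14 cargo genes fell, beside 2.73% of all genes. Their changes were -1.77 ± 0.20 for Thbs1, -1.66 ± 0.24 for Pdgfa and -2.06 ± 0.17 for Pdgfb. The mean summed level of the cargo list had the same order over the groups as that of the megakaryocyte markers, whose part in it was not tested.

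Of 14 lysosomal genes, 1 rose and 3 fell in the double KO against wild type, 4 of 14 called beside 34.5% of all genes. Cd63, a tetraspanin of lysosomes and dense granules, rose by 0.89 ± 0.18 (adjusted p = 0.00289), with 229, 255 and 285 CPM in the double KO and 143, 104 and 168 CPM in wild type. Hexa, a subunit of the lysosomal hexosaminidases, fell by 0.89 ± 0.11 (adjusted p = 7.33e-05). Lamp2, a lysosomal membrane protein, fell by 0.54 ± 0.10 (adjusted p = 0.00198). The protease gene Ctsd fell by 0.60 ± 0.21 (adjusted p = 0.0401), a call lost under 9 of 21 alternatives, among them without replicate 1 or 2 of any of the 4 groups, with an adjusted p of up to 0.186.

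In Lyl1 KO against wild type no gene of the 7 lists was called by edgeR in the fit of all 12 libraries. At an unadjusted p under 0.05 there were 2 of 7 BEACH-domain genes, 2 of 13 in the Rab27 and Rab32 group, 3 of 14 lysosomal genes and 2 of 14 cargo genes. The other lists had 0, and over all genes there were 1230 of 15399. DESeq2 called 1 BEACH-domain gene and 1 lysosomal gene, and limma-voom called 0. The edgeR fit of only the 6 libraries called 1 BEACH-domain gene, and that of replicates 1 and 2 called 1 BEACH-domain, 1 lysosomal and 1 cargo gene. In Scl KO against wild type the AP-3 and BLOC, tether, BEACH-domain, transporter and lysosome lists had 0 calls by edgeR in that fit and by limma-voom. In these lists 3 of 16 AP-3 and BLOC genes and 1 of 14 lysosomal genes had an unadjusted p under 0.05, beside 2767 of all 15399 genes. DESeq2 called 2 AP-3 and BLOC genes and 1 lysosomal gene there, as did edgeR with the block in 2 levels, and edgeR with the replicate block called 1 AP-3 and BLOC gene. In replicates 1 and 2 alone edgeR called 1 AP-3 and BLOC gene and 1 lysosomal gene. Leaving out any 1 double KO library gave 1 AP-3 and BLOC call, and leaving out wild type 3 gave 1 lysosomal call.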

How the data were processed

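Raw read counts for each gene and each of the 12 libraries were deposited by the authors in 1 table. Per the labels' protocols, libraries were made with a strand-specific mRNA kit. Per the submitters' processing notes, STAR 2.5.2b, featureCounts of Subread 1.5.2 and limma were used with build GRCm38. Per the file headers, reads were counted on the reverse strand over Ensembl release 87 models. Read length and aligner options are not stated in the labels or headers.

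Counts were tested in R 4.3.3 with edgeR 4.0.16 (default filter by group, minimum count 10 and total 15; TMM; robust quasi-likelihood F-test; 1 fit of all 12 libraries with group only; Benjamini-Hochberg adjustment per comparison over 15399 genes; common biological coefficient of variation 0.234). CPM per kb divides by the deposited exon length. The test was checked on simulated data. The 3-count limit covers counting error only. Symbols were missing for 345 identifiers, none of the 10 genes. The alternatives were DESeq2 1.42.0 size factors and Wald test, limma 3.58.1 voom, other filters, replicate blocks, fewer libraries and each library left out.

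Deviations of same-numbered libraries from their group means correlated at 0.15 to 0.441 in all 3 pairs of double KO and Scl KO. They did not exceed 0.1 in every pair of any other 2 groups, but Scl KO with wild type missed this narrowly, at 0.09999 to 0.361. Scl KO 3 with wild type 3 was at 0.361 and double KO 3 with wild type 3 at 0.236. Double KO 1 with Scl KO 2 (0.2315) and double KO 2 with Scl KO 1 (0.152) correlated as much as same-numbered ones, so the values set replicate 3 apart and do not tell replicates 1 and 2 from each other. The pairing rests on these values, not on the labels. Genes most alike are, for the 3 genes with the smallest joint p, the 3 with the highest r at a mean of at least 1 CPM. From each related list up to 4 called genes per comparison, those with the smallest p, are named; Selp and F13a1 were added after their values were seen. 1 gene of the chosen marker lists is not reported here, and sums and counts leave it out. The genes, lists and tests were chosen with earlier results of these data known.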

Additional observations from a re-analysis of the deposited data

Results flagged for a closer look

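By the interaction test, the effect of the Lyl1 KO differed between the groups labelled with and without the Scl KO. This held for 14 of 78 genes of the 7 related lists, beside 9.38% of all genes, and for none of the 10 granule biogenesis genes. Of these, 7 were alpha granule cargo genes (7 of 14 tested), all with a negative interaction, beside 5.86% of all genes. The 10 megakaryocyte markers went the same way, with 3 called, all negative, and a median of -1.28 beside -0.95 for the cargo. Their part in the cargo result was not tested. The count of cargo genes was 4 without Lyl1 KO 1, Scl KO 1 or Scl KO 2. Thbs1 had an interaction of -3.89 on the log2 scale (adjusted p = 8.52e-05, edgeR) and averaged 407 ± 27.5 CPM in the double KO, 20565 ± 1374 in Lyl1 KO, 5787 ± 1605 in Scl KO and 19748 ± 1582 in wild type. F5, a clotting factor, was at -2.01 (adjusted p = 0.0133), Tgfb1, a growth factor, at -1.12 (adjusted p = 0.00915), and Pf4 at -0.94 (adjusted p = 0.0163). The lysosomal gene Hexa was at -0.85 (adjusted p = 0.00652). These 5 calls were kept under every alternative run. Slc18a2 had an interaction of 1.23 (adjusted p = 0.0118) and averaged 569 ± 104 CPM in the double KO, 310.2 ± 18.5 in Lyl1 KO, 208 ± 44 in Scl KO and 267 ± 41.2 in wild type. Slc35d1 had an interaction of 1.18 (adjusted p = 0.00676), and both calls were kept under every alternative run. Wdfy4 was at 0.74 (adjusted p = 0.0227), Hps4 at -0.75 (adjusted p = 0.0378), Slc6a4 at -0.91 (adjusted p = 0.0386) and Sytl4 at -1.03 (adjusted p = 0.0485). The last 4 calls were lost under 6, 11, 10 and 11 of 20 alternatives.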

How the results depend on the processing

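No change of the 10 genes reversed among results called in either fit. The direction changed 45 times among values that were not called, none beyond 0.268 on the log2 scale. In the double KO against wild type 2 genes were called, and 4 with DESeq2's Wald test (Nbeal2 and Vps33b added). With a replicate block in 2 levels (replicate 3 against the others) 4 were called, with Nbeal2 and Slc35d3 added. The same 4 as with this block were called in the 8 libraries of replicates 1 and 2, a setting added after the data were seen. Leaving out 1 library gave 2 to 4. Against Scl KO 1 was called, with 2 by DESeq2, 0 in the 6 libraries compared, 4 with the replicate block and with the block in 2 levels, 2 in replicates 1 and 2, and 0 to 2 with 1 library left out. Against Lyl1 KO 4 were called, 5 (Vps33b added) with DESeq2 size factors, a mean of at least 1 CPM, DESeq2's Wald test, the 6 libraries compared and the block in 2 levels, and 1 to 5 with 1 library left out. In Scl KO against wild type 1 was called, and 0 to 1 with 1 library left out. The interaction was called for 0, and for 1, Slc35d3, in replicates 1 and 2. Lyl1 KO against wild type gave 0 under every alternative run. The cause of these differences was not tested. With the replicate block, Nbeal2 was also called in the double KO against wild type, at 0.44 (adjusted p = 0.0174); the block moved no other call of the 10 genes beyond those given for the double KO against Scl KO. Counts over all genes moved by more than 1.5 times in Lyl1 KO against wild type (11; DESeq2 103, 6 libraries 29, replicates 1 and 2 331, 1 library left out 5 to 41), in Scl KO against wild type (774; DESeq2 1329, block 1226, block in 2 levels 1329, replicates 1 and 2 1198, lowest 388 with 1 left out), in the double KO against Scl KO (2947; 6 libraries 1742, lowest 1645 with 1 left out) and in the interaction (1444; DESeq2 2261, block in 2 levels 2224, lowest 671 with 1 left out). No scaling moved the median of all genes by over 0.1. TMM and the DESeq2 size factors both place most genes near no change, so this median could hardly move. It therefore cannot show whether the changes depend on the scaling. The TMM factor of each double KO library was higher than that of every library of the other groups. Dependence on a scaling without that assumption was not tested. Depth limits Slc17a9 most.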

Other observations

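Markers of other cells that hold lysosome-related organelles or granules were low beside those of megakaryocytes. Melanocyte markers summed to at most 1.67 CPM in any library. Mast cell markers summed to 13.2 to 19.2 CPM in the double KO and 15.2 to 55.6 CPM in wild type, and neutrophil markers to 380.4 to 925 CPM in the double KO and 273 to 568 CPM in wild type. Endothelial markers summed to 340.2 to 415 CPM in the double KO and 589 to 684 CPM in wild type. Of the 8 markers 1 was called higher and 4 lower, beside 16.4% of all genes that rose and 18.1% that fell. Primitive erythroid markers summed to 12 to 79.1 CPM in the double KO, 199.6 to 257 CPM in Lyl1 KO, 37.3 to 132 CPM in Scl KO and 58 to 80.4 CPM in wild type.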
